A study of Arabidopsis thaliana with 9 samples.

Results

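The plastid-encoded photosynthesis genes examined here are genes of the Arabidopsis thaliana plastid genome that encode parts of the photosynthetic machinery, picked by symbol. They were taken as the plastid genes with a lower-case psa, psb, pet, atp, ndh or rbc symbol and a probe set that the array annotation pairs with 1 gene. The rule found 43 genes of the 13356 genes with such a probe set, and each of the 43 had 1 probe set. The set held 15 genes of photosystem II, 5 of photosystem I, 6 of the cytochrome b6f complex, 6 of the ATP synthase, 10 of the NAD(P)H dehydrogenase-like (NDH) complex and rbcL of Rubisco. The gene table lists 44 symbols of this kind, and the other one, ndhB, lies in the inverted repeat and has a probe set paired with more than 1 gene entry.

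RNA came from whole seedlings of ecotype Columbia-0 that had grown for 108 h in darkness on solid MS medium with 1% sucrose, with 3 Affymetrix arrays for each of 3 genotypes. Col was the wild type. The bri1-116 seedlings were homozygous for a null allele of BRI1, the cell-surface receptor kinase for brassinosteroid hormones, and were picked one by one, after freezing, out of a segregating population. AtGATA2ox overexpressed AtGATA2, a GATA-type transcription factor, and the labels state neither the promoter nor how many transgenic lines were used. No group received light or a chemical treatment, and the comparison of both genotypes with Col asks what loss of brassinosteroid perception and gain of AtGATA2 do to transcripts in the dark. Nothing in the labels says that the arrays of a genotype came from separate cultures, so each p-value reflects the spread among these samples, which may be technical.

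Plastids keep a small genome of their own, and the large photosynthetic complexes are built partly from its products and partly from proteins made in the cytosol. In darkness seedlings hold etioplasts, plastids that lack a working thylakoid system, and light turns these into chloroplasts. Many plastid genes lie in operons that are read into long precursor RNAs and then cut into smaller messages, so their transcript levels depend on processing and stability as well as on transcription. Most plastid transcripts lack the stable poly(A) tail of cytosolic messages. The eukaryotic labelling protocol named in the labels starts from poly(A) tails, and what share of each plastid transcript it captured is not given.

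Each value is a linear intensity, scaled by the authors so that the trimmed mean of every array is the same. Fold changes are on the scale of log2(intensity + 1) and are given ± SE from 1 limma fit of all 9 arrays and 22746 probe sets. A gene was called higher or lower where limma's p, adjusted by Benjamini and Hochberg over all those probe sets, was under 0.05. The RNA came from whole seedlings, so fewer cells of a type and less RNA per cell cannot be told apart. The highest value of the bacterial (Bacillus) controls was 84.1, taken as a background level on the assumption that none of their RNA was added. Of the 43 genes, 40 lay above it on every array. The exceptions were atpI, ndhF and ndhH, for which dim values may be background.

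Several arrays stood apart. The 3′ actin control over its 5′ counterpart gave 3.66 to 5.45 in AtGATA2ox and 2.86 to 4.88 in bri1-116 but 1.81 to 2.03 in Col, and a higher ratio goes with shorter labelled RNA. The 25S rRNA control read 8762.9 and 3533.8 in bri1-116 replicates 1 and 2 against 107.7 in replicate 3, and 143 to 194.2 in Col. The hybridisation controls, added in equal amounts, averaged 11.2 for AtGATA2ox, 10.6 for bri1-116 and 10.1 for Col on the log2 scale. The part of these shifts in the results was not tested, and no hybridisation date is given, so a hybridisation run and a genotype cannot be told apart. AtGATA2 and BRI1 are not analysed here, so the labels were not checked against either gene. Of the organ marker lists, 3 of 16 green shoot genes had a named probe set, and their summed intensity ran from 5474.3 to 6580.3 on the Col arrays. It was 11579.2 to 15343.7 for bri1-116 and 5480.5 to 7930 for AtGATA2ox. The sum hid opposite changes, since in AtGATA2ox RCA (Rubisco activase) was called higher (log2 fold change 0.65) and PRK (phosphoribulokinase) lower (−0.91), with SBPASE at −0.45 and not called. In bri1-116 RCA (1.46) and SBPASE (1.01) were called higher and PRK was at 0.07.

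**Figure D1:**
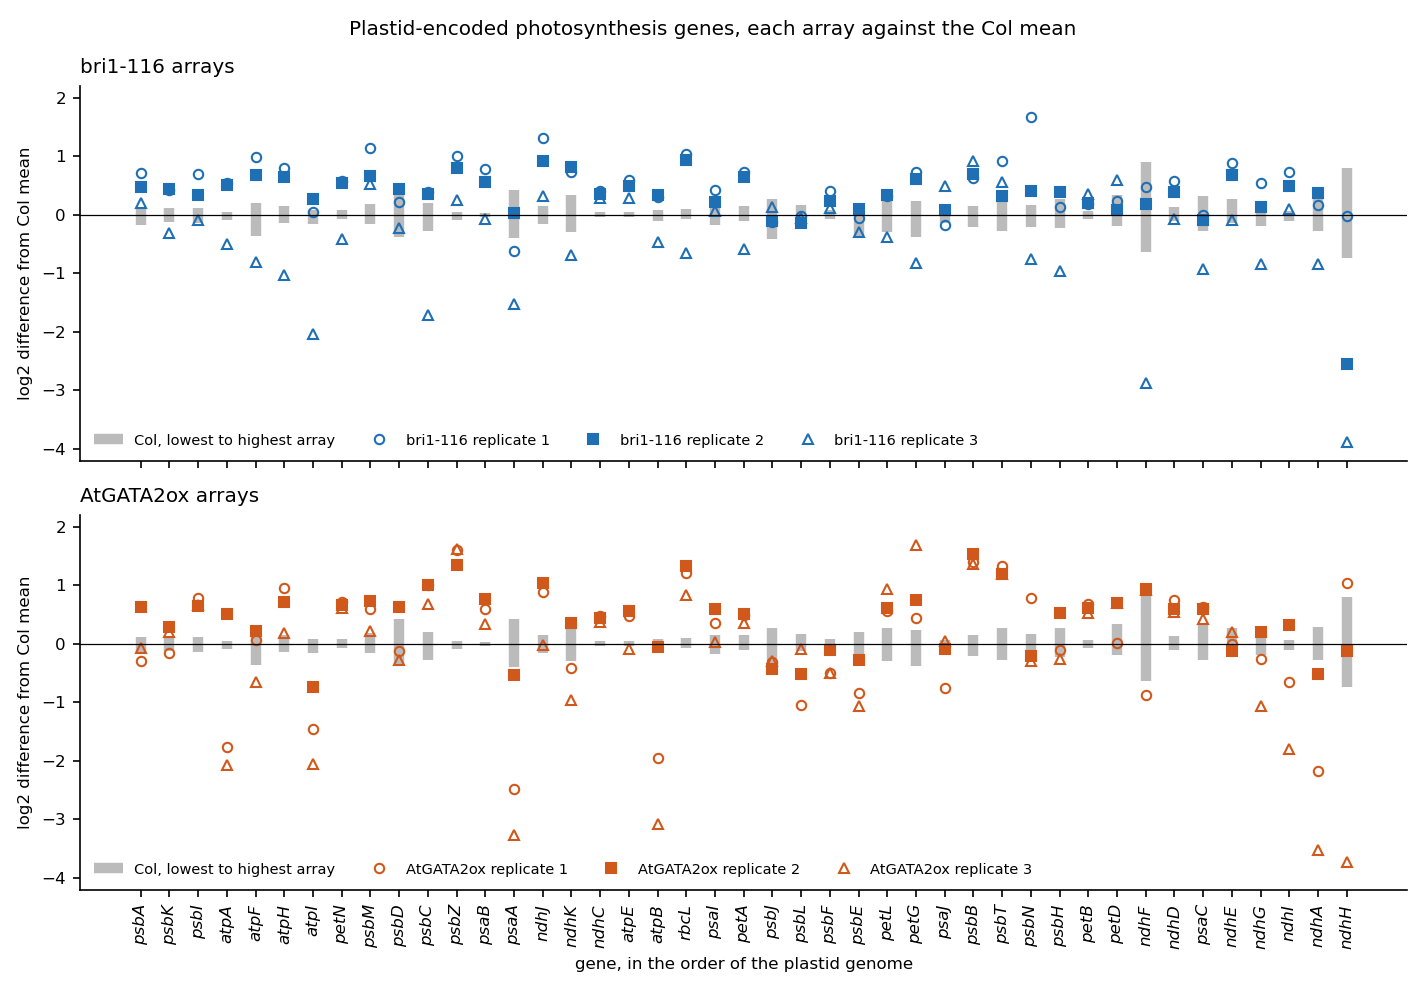
Each of the 43 genes on each bri1-116 and AtGATA2ox array, as the log2 intensity minus the mean of the 3 Col arrays. Genes are in the order of the plastid genome, and bars span the lowest to the highest Col array. bri1-116 replicate 3 is the lowest bri1-116 array for 36 of the 43 genes, and AtGATA2ox replicate 2 is the highest AtGATA2ox array for 26 of them.

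The 43 genes differed between arrays of 1 genotype as well as between genotypes. Relative to the mean of the Col arrays, their median log2 intensity was 0.01, −0.14 and 0.07 on Col replicates 1, 2 and 3. It was 0.54 and 0.38 on bri1-116 replicates 1 and 2 but −0.29 on replicate 3. It was 0.35, 0.57 and 0.05 on the AtGATA2ox arrays, so the bri1-116 arrays lay on both sides of Col and AtGATA2ox replicate 3 lay inside the Col range. bri1-116 replicate 3 gave the lowest bri1-116 value for 36 genes (83.7%), whereas that array was lowest for 40.6% of all probe sets. AtGATA2ox replicate 2 gave the highest value of its genotype for 26 genes (60.5%, against 29.8% of all probe sets), and replicate 3 the lowest for 30 genes (69.8%, against 35.4%). The ratio of the highest to the lowest array of a genotype had a median over the 43 genes of 1.6 for AtGATA2ox, 1.74 for bri1-116 and 1.24 for Col, and exceeded 2 for 13 (30.2%), 17 (39.5%) and 2 (4.65%) genes. Over all probe sets the medians were 1.98, 1.56 and 1.46, and 49.2%, 35.1% and 31.1% exceeded 2. The spread of the 43 genes was above that background only in bri1-116, but the background is much dimmer. Its median intensity per array was 104.3 to 147.3, against 2346.8 to 5840.9 for the 43 genes. Compared with Col, the 43 genes spread more in both other genotypes.

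The complexes did not share 1 pattern across the arrays. The 6 cytochrome b6f genes had medians of 0.52, 0.64 and 0.65 on the AtGATA2ox arrays, relative to the Col mean. The 6 ATP synthase genes had −0.69, 0.36 and −1.35 on the same arrays. By these medians replicate 2 was the only AtGATA2ox array above Col for the ATP synthase, while all 3 were above Col for cytochrome b6f. Single ATP synthase genes differed from the median, with atpH at 0.95, 0.72 and 0.19 and atpI at −1.45, −0.74 and −2.05 on the AtGATA2ox arrays. On the bri1-116 arrays the ATP synthase medians were 0.57, 0.50 and −0.66, and the photosystem I medians lay between −0.07 and 0.07. Single photosystem I genes lay further out, with psaA at −0.63, 0.03 and −1.52 and psaB at 0.78, 0.56 and −0.07.

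**Figure D2:**
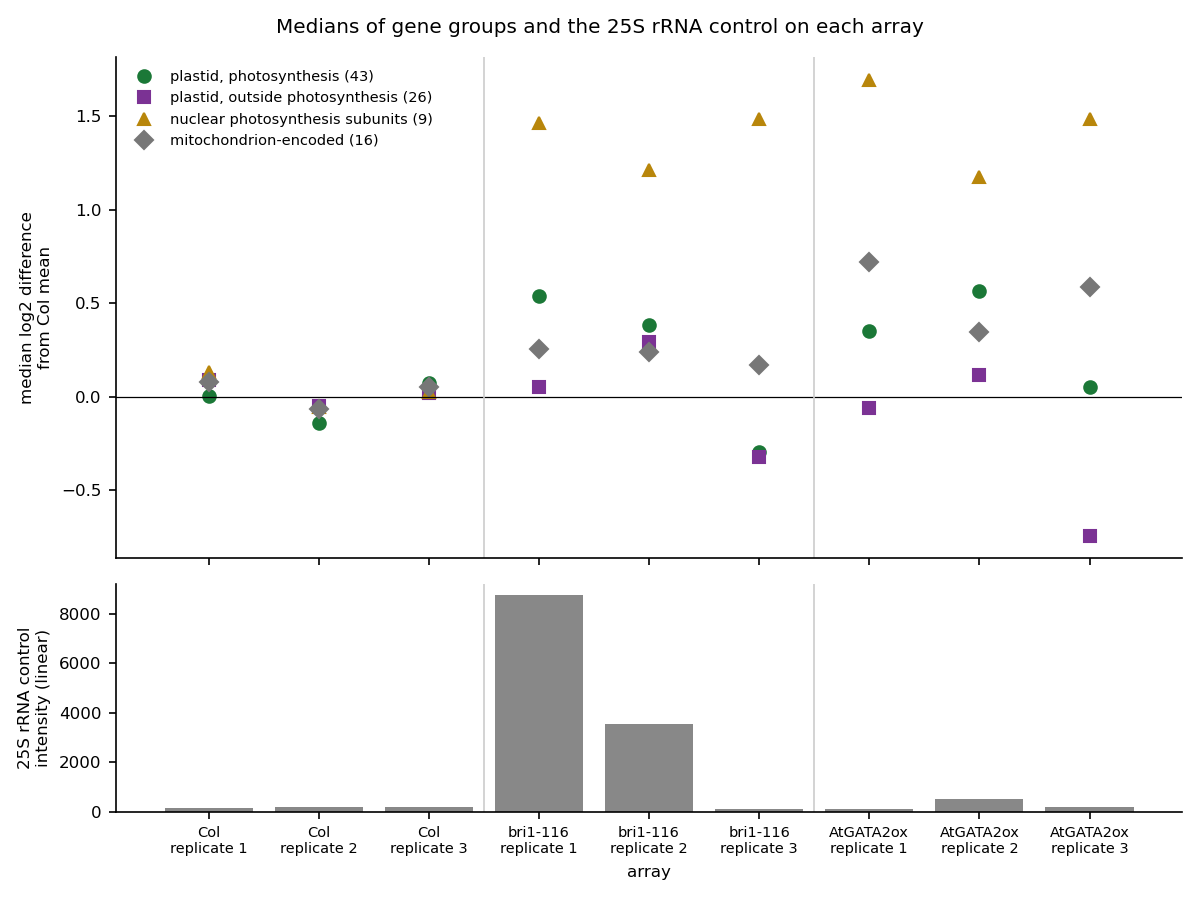
Median log2 intensity relative to the Col mean on each array, for the plastid-encoded photosynthesis genes, other plastid genes, nuclear-encoded photosynthesis subunits and mitochondrion-encoded genes. The nuclear subunits lie at 1.18 to 1.69 on every bri1-116 and AtGATA2ox array, while the plastid photosynthesis genes lie between −0.29 and 0.57.

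In AtGATA2ox the plastid genes for photosystem II core and small subunits, cytochrome b6f subunits and rbcL held most of the higher calls, and 4 genes of 4 complexes were lower. These directions hold for the deposited scaling, and with scaling to the hybridisation controls 0 of the 43 genes were called higher and 22 lower. Against Col, 10 of the 43 genes were called higher (23.3%) and 4 lower (9.30%), beside 9.72% higher and 18.8% lower (28.5% in all) among all probe sets. The other 29 were not called. The median log2 fold change of the 43 genes was 0.32, against −0.17 over all probe sets. All 3 AtGATA2ox arrays lay above all 3 Col arrays for 17 of the 43 genes (background 15.6%) and below them for 4 genes (background 25.7%). The counts moved with single arrays: 4 were called higher without Col replicate 1, 5 without Col replicate 2, 6 without AtGATA2ox replicate 1 and 15 without bri1-116 replicate 3. The lower count was 8 without AtGATA2ox replicate 2, and 2 without AtGATA2ox replicate 1, AtGATA2ox replicate 3 or Col replicate 3.

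Photosystem II splits water and holds a reaction centre of D1 and D2 (psbA and psbD), inner antenna proteins, cytochrome b559 and many small subunits. Of its 15 genes, 4 were called higher and 1 lower in AtGATA2ox. The smallest adjusted p was that of psbB, which encodes the inner antenna protein CP47. Its intensity was 1449.2, 1134.1 and 1370.1 on the Col arrays and 3453.4, 3809.7 and 3370.7 on the AtGATA2ox arrays. Every AtGATA2ox array was more than 2 times the highest Col array, and the 2.7-fold difference was called (log2 fold change 1.43 ± 0.14, adjusted p = 1.03e-05). psbZ, which encodes a small subunit at the edge of the complex, read 4386.1, 4018.6 and 4418.1 in Col and 13005.5, 10911.2 and 13182 in AtGATA2ox. The groups were as far apart as for psbB, with a 2.88-fold difference (log2 fold change 1.53 ± 0.19, adjusted p = 5e-05). psbT, a small subunit gene that follows psbB in the same operon, read 724, 595.5 and 870.5 in Col and 1805.2, 1648.5 and 1644.8 in AtGATA2ox (log2 fold change 1.23 ± 0.18, adjusted p = 0.000222). The calls of psbB, psbZ and psbT, and that of ndhA described later, were each kept in all 9 fits that left out 1 array. Without the intensity trend in the fit, psbB, psbZ, psbT and petB were still called, while the lower calls of ndhA, psaA, atpB and psbE were lost. psbI, a small subunit next to D1, read 5972, 6599.2 and 7114.2 in Col and 11201.9, 10270.4 and 10319.5 in AtGATA2ox (log2 fold change 0.69 ± 0.19, adjusted p = 0.0146). The groups did not overlap, and the call of psbI was lost without Col replicate 1 (log2 fold change 0.63).

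psbC encodes the other inner antenna protein, CP43, and read 6771.4, 5358.3 and 7465.2 in Col and 12905.8, 13006.6 and 10315.7 in AtGATA2ox. The groups did not overlap, yet the difference did not pass the threshold (log2 fold change 0.89 ± 0.42, adjusted p = 0.136). psbM, a small subunit at the interface of the photosystem II dimer, likewise lay above Col on every AtGATA2ox array without being called (log2 fold change 0.51 ± 0.22, adjusted p = 0.103). The genes psbA and psbD had log2 fold changes of 0.09 ± 0.22 and 0.07 ± 0.26, and for both the arrays of the genotypes overlapped. The psbE, psbF, psbL and psbJ genes form 1 operon, in which psbE and psbF encode the subunits of cytochrome b559. psbE was called lower, at 7374.3, 5097.8 and 7578.6 in Col and 3657.5, 5400.3 and 3152.2 in AtGATA2ox (log2 fold change −0.73 ± 0.22, adjusted p = 0.0213). AtGATA2ox replicate 2 was above the lowest Col array, and the call of psbE was lost without Col replicate 1 or 3 or AtGATA2ox replicate 1 or 3 (log2 fold change −0.67 to −0.57). The other genes of the operon had log2 fold changes of −0.37 (psbF), −0.55 (psbL) and −0.35 (psbJ) and were not called.

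Photosystem I passes electrons to ferredoxin, and psaA and psaB encode the paired proteins of its reaction centre. psaA was the 1 gene of the 5 that was called, and it was lower. It read 1671.8, 1304.3 and 2303.3 in Col but 304.6, 1187.3 and 177.4 in AtGATA2ox. AtGATA2ox replicate 2 lay just below the lowest Col array, while replicates 1 and 3 were far below it. The fold was 4.27 lower (log2 fold change −2.09 ± 0.54, adjusted p = 0.0108), and the call was lost without AtGATA2ox replicate 3 (log2 fold change −1.51). The log2 fold change of psaA was −2.88 without AtGATA2ox replicate 2, and −0.53 and not called with replicate 2 alone. psaB, the next gene of the same operon, read 13444.9, 14199.4 and 13954.3 in Col and 20839.5, 23667.2 and 17612.3 in AtGATA2ox. Here all AtGATA2ox arrays were above Col, but the gene was not called (log2 fold change 0.57 ± 0.22, adjusted p = 0.0729). psaC, which encodes the subunit that carries the terminal iron-sulphur clusters, was also above Col on every AtGATA2ox array and not called (log2 fold change 0.55 ± 0.23, adjusted p = 0.0906).

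The cytochrome b6f complex moves electrons between the photosystems. All 6 of its genes had fold changes above 0, from 0.45 to 0.96 on the log2 scale, and 3 were called, although all 6 lay below 0, from −0.60 to −0.09, with scaling to the hybridisation controls. petB, which encodes cytochrome b6, read 15442.8, 16275 and 16984.4 in Col and 25988.2, 24870.9 and 23486.5 in AtGATA2ox (log2 fold change 0.61 ± 0.17, adjusted p = 0.0142). The groups did not overlap, and the call of petB was lost without Col replicate 1 (log2 fold change 0.57). The small subunit genes petL (log2 fold change 0.70 ± 0.22, adjusted p = 0.0275) and petN (log2 fold change 0.66 ± 0.23, adjusted p = 0.0476) were called as well. The call of petL was lost without Col replicate 1 or 2 or AtGATA2ox replicate 3 (log2 fold change 0.55 to 0.71), and that of petN without Col replicate 1, 2 or 3, bri1-116 replicate 2 or AtGATA2ox replicate 1, 2 or 3 (log2 fold change 0.63 to 0.70). petG, another small subunit gene, had the largest fold change of the 6 and was not called (log2 fold change 0.96 ± 0.38, adjusted p = 0.0819).

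The ATP synthase uses the proton gradient to make ATP, and atpA and atpB encode the alternating α and β subunits of its catalytic head. Of the 6 genes, 1 was called lower and the other 5 were not called. atpB read 11617.3, 11136.3 and 10278.2 in Col and 2854.3, 10540.2 and 1300.3 in AtGATA2ox. Replicates 1 and 3 were far below every Col array, but replicate 2 was inside the Col range. The actin ratio was 5.45 and 5.28 on replicates 1 and 3 against 3.66 on replicate 2, and the hybridisation controls averaged 11.31, 11.28 and 10.90 on replicates 1, 3 and 2. Replicates 1 and 3 were also the lower ones for atpA, psaA, ndhA and ndhI, and the part of these measures in the result was not tested. The difference of atpB was called (log2 fold change −1.70 ± 0.52, adjusted p = 0.0267), and the call was lost without Col replicate 1, 2 or 3 or AtGATA2ox replicate 1 or 3 (log2 fold change −1.74 to −1.003). Its log2 fold change was −2.51 without replicate 2, and −0.06 and not called with replicate 2 alone. atpA had the same order of arrays, at 2224.7, 10737.7 and 1814.5 in AtGATA2ox against 7848.5, 7112.6 and 7825.2 in Col, and was not called (log2 fold change −1.11 ± 0.50, adjusted p = 0.122). With AtGATA2ox replicate 2 left out, atpA was called as well, at a log2 fold change of −1.92. atpE, which encodes the ε subunit and overlaps atpB in the same operon, read 12899.8, 13341.3 and 13668.1 in Col and 18525.9, 19688.7 and 12512 in AtGATA2ox. Its groups overlapped and it was not called (log2 fold change 0.32 ± 0.20, adjusted p = 0.268).

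The NDH complex returns electrons from ferredoxin to the plastoquinone pool. Of its 10 genes, 2 were called higher, 1 lower and 7 were not called. ndhD, a membrane-arm subunit gene, read 11239.1, 11963.3 and 13229.2 in Col and 20436.2, 18260.9 and 17606.4 in AtGATA2ox (log2 fold change 0.63 ± 0.19, adjusted p = 0.0252). The groups did not overlap, and the call of ndhD was lost without Col replicate 1 or 2 or AtGATA2ox replicate 1 (log2 fold change 0.57 to 0.62). ndhC, also of the membrane arm, was called higher (log2 fold change 0.43 ± 0.14, adjusted p = 0.0343), but its call was lost without Col replicate 1, 2 or 3, bri1-116 replicate 1 or 2 or AtGATA2ox replicate 1 (log2 fold change 0.41 to 0.45). ndhA, a membrane-arm gene that carries an intron, read 2761.2, 2303.5 and 3382 in Col and 617.4, 1947.3 and 240.9 in AtGATA2ox. All AtGATA2ox arrays were below Col, replicates 1 and 3 much further than replicate 2, and the fold was 4.2 lower (log2 fold change −2.07 ± 0.54, adjusted p = 0.0112). Its value was −2.85 without AtGATA2ox replicate 2 and −0.51 with replicate 2 as the only AtGATA2ox array, where it was not called. ndhI, which lies beside ndhA and encodes a peripheral-arm iron-sulphur subunit, read 6835.2, 13442.1 and 3103.1 in AtGATA2ox against 11340, 10065.4 and 11004.7 in Col. Its groups overlapped and it was not called (log2 fold change −0.71 ± 0.38, adjusted p = 0.193).

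rbcL encodes the large subunit of Rubisco, the enzyme that fixes CO2. It read 1448.8, 1338.5 and 1281.2 in Col and 3113.9, 3412.4 and 2410.7 in AtGATA2ox. Every AtGATA2ox array was above every Col array, and the 2.18-fold difference was called (log2 fold change 1.12 ± 0.33, adjusted p = 0.0226). That call was lost without Col replicate 2 or 3 or AtGATA2ox replicate 1 or 2 (log2 fold change 1.02 to 1.11).

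**Figure D3:**
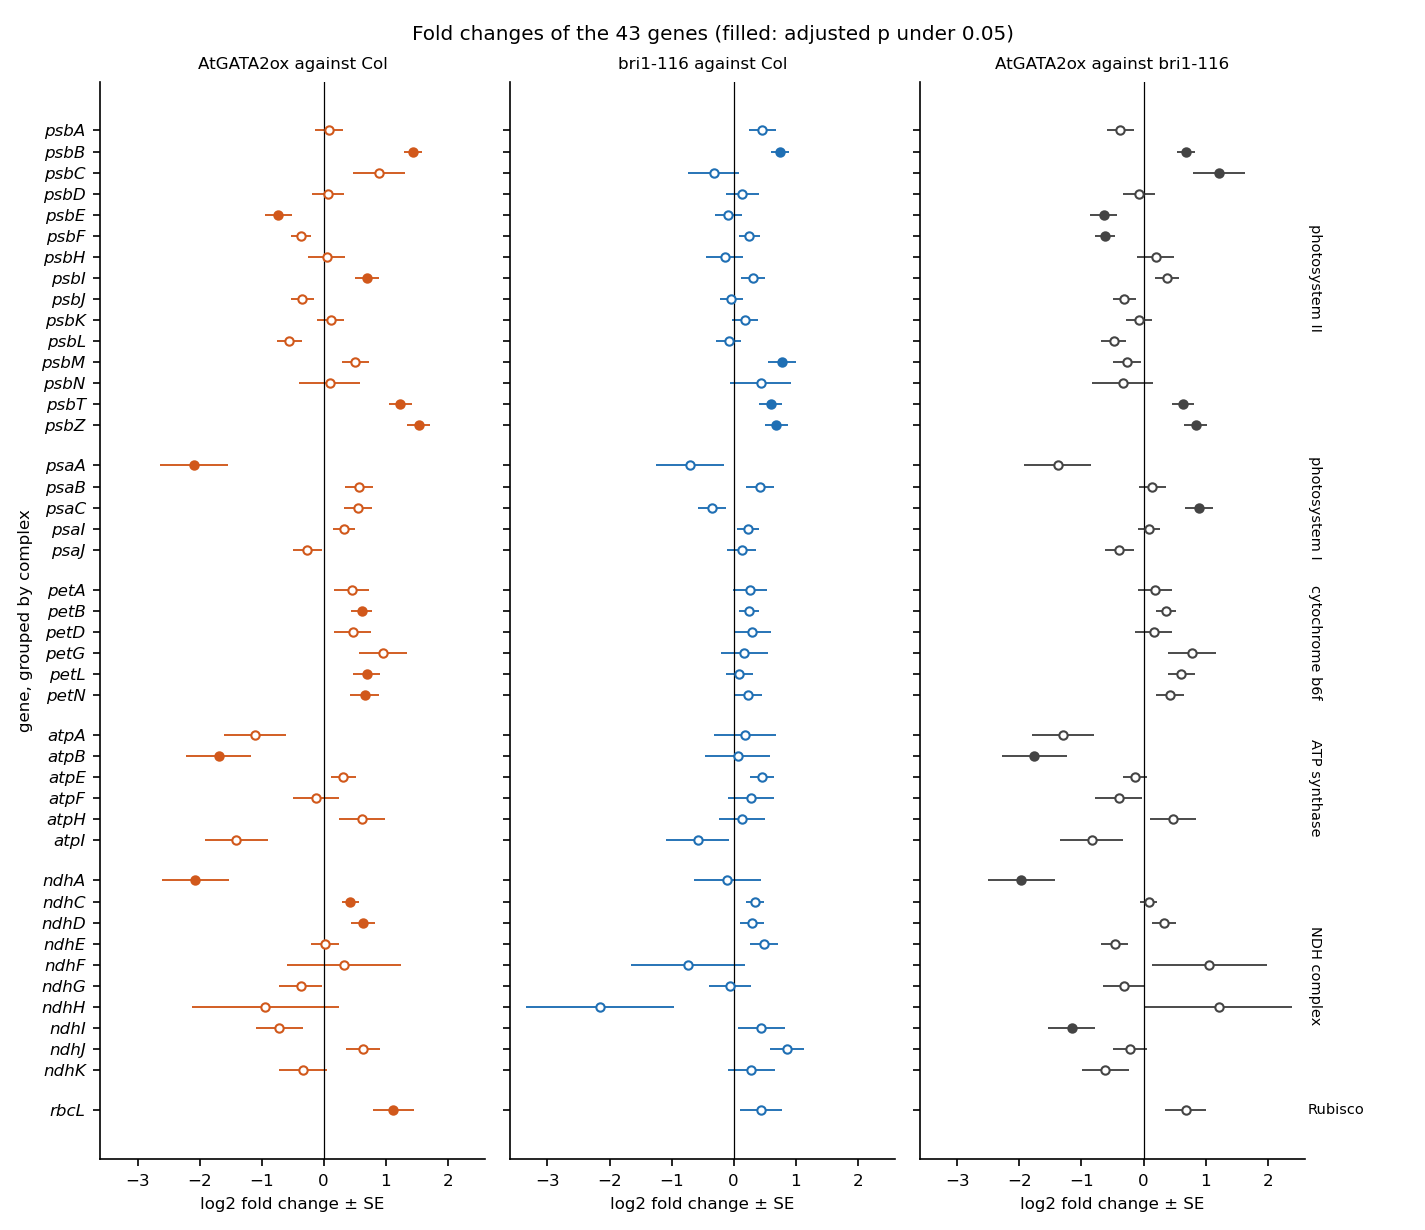
Log2 fold change with its SE for each of the 43 genes in AtGATA2ox against Col and in bri1-116 against Col, grouped by complex, with called genes filled. Both comparisons with Col use the same Col arrays. In each of them psbB, psbZ and psbT are called higher, a direction that is not called under scaling to the hybridisation controls.

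In bri1-116 only photosystem II genes were called with the deposited scaling, all of them higher. With quantile normalisation limma also called the NDH gene ndhJ (log2 fold change 0.90, adjusted p = 0.0332), and psbM was not called (adjusted p = 0.129). With the deposited scaling, 4 of the 43 genes were called higher against Col (9.30%), beside 7.09% of all probe sets, and 0 lower, beside 8% (15.1% in both directions). By the same limma test, 8 genes were higher and 0 lower at an unadjusted p under 0.05, beside 12.1% and 13.8% of all probe sets. The share of higher calls is thus near the background. The median log2 fold change was 0.24 (−0.02 over all probe sets). All 3 bri1-116 arrays lay above every Col array for 11 genes (background 18.2%) and below for 0 (background 19.3%). The higher count was 8 without bri1-116 replicate 3, 1 without Col replicate 1, Col replicate 2 or bri1-116 replicate 1, and 2 without Col replicate 3 or bri1-116 replicate 2.

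psbB read 2038.5, 2120.8 and 2470.8 on the bri1-116 arrays, all above the Col arrays, which reached 1449.2 (log2 fold change 0.75 ± 0.14, adjusted p = 0.00283). This call was kept in all 9 fits that left out 1 array. psbZ read 8554.4, 7443 and 5094.7, again all above Col, with replicate 3 nearest to it (log2 fold change 0.69 ± 0.19, adjusted p = 0.0245). psbM read 37099.9, 26520.4 and 24278.8 in bri1-116 and 16466.2, 15057.9 and 19060.9 in Col. The groups did not overlap and the gene was called (log2 fold change 0.78 ± 0.22, adjusted p = 0.0283). psbT read 1363, 902.2 and 1059.1, above the highest Col value of 870.5 on every array (log2 fold change 0.60 ± 0.18, adjusted p = 0.0418). The calls of psbZ, psbM and psbT were each lost in several of the fits that left out 1 array. That of psbZ was lost without Col replicate 1, 2 or 3 or bri1-116 replicate 1 or 2 (log2 fold change 0.53 to 0.71). That of psbM was lost without Col replicate 1, 2 or 3 or bri1-116 replicate 1 or 2 (log2 fold change 0.60 to 0.87), and that of psbT without Col replicate 1 or 2 or bri1-116 replicate 1 or 3 (log2 fold change 0.44 to 0.62).

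Replicate 3 ran against replicates 1 and 2 of bri1-116 for several other genes. For rbcL the 3 arrays read 2785.6, 2581.1 and 866, so replicates 1 and 2 were above every Col array and replicate 3 was below every Col array. psbC (8481.6, 8291 and 1966.6) and atpA (11031.6, 10831.6 and 5372.2) had the same order. With replicate 3 left out, the median of the 43 genes was 0.43, and rbcL, petN, petA, ndhJ and ndhE joined psbM, psbZ and psbB as called higher, while psbT was not called. When replicate 3 stood alone for bri1-116, the median was −0.29, psbB was called higher at 0.91, and psbC (−1.72) and atpI (−2.03) were called lower. That fit takes the lone array to vary like the other genotypes. The actin ratio was highest and the 25S rRNA value lowest on this array among the bri1-116 arrays, and their part in the result was not tested. Genes whose 3 bri1-116 arrays were all above Col without a call were ndhJ (log2 fold change 0.85 ± 0.27, adjusted p = 0.0521), ndhI, ndhC, atpE, petB, psbA and psbF.

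AtGATA2ox and bri1-116 were also compared directly, with no Col array in the contrast. Against bri1-116, 5 of the 43 genes were higher in AtGATA2ox (11.6%), beside 9.55% of all probe sets, and 5 lower (11.6%), beside 17.2% (26.8% in both directions). The median log2 fold change was −0.07, against −0.16 over all probe sets. All AtGATA2ox arrays lay above all bri1-116 arrays for 8 genes (background 14.5%) and below for 2 (background 23.1%). The lower count ranged with the array left out, from 0 without bri1-116 replicate 1 and 1 without bri1-116 replicate 2 to 8 without AtGATA2ox replicate 2 and 10 without bri1-116 replicate 3. It was 2 without AtGATA2ox replicate 1 or 3 and 3 without Col replicate 3, and the higher count was 3 without bri1-116 replicate 3.

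The higher genes were psbB (log2 fold change 0.68 ± 0.14, adjusted p = 0.0031), psbZ (log2 fold change 0.84 ± 0.19, adjusted p = 0.00443) and psbT (log2 fold change 0.64 ± 0.18, adjusted p = 0.0191), each with no overlap of the arrays, together with psaC and psbC. psaC read 3002.9, 2821.7 and 1580.5 in bri1-116 and 4662.6, 4554.4 and 4029.7 in AtGATA2ox, again without overlap (log2 fold change 0.89 ± 0.23, adjusted p = 0.00991). The calls of psbB, psbZ and psaC were kept in all 9 fits that left out 1 array, and that of psbT was lost without bri1-116 replicate 2 or 3 (log2 fold change 0.50 to 0.61). psbC was just past the threshold (log2 fold change 1.22 ± 0.42, adjusted p = 0.046) and its call was lost without Col replicate 1, 2 or 3, bri1-116 replicate 3 or AtGATA2ox replicate 1, 2 or 3 (log2 fold change 0.52 to 1.32). The lower genes included psbF, which encodes a cytochrome b559 subunit and read 13229.4, 11816.7 and 10923.4 in bri1-116 and 7064.9, 9310 and 7117.1 in AtGATA2ox. The groups did not overlap, and Col lay between them at 10560, 9592.4 and 9942.5 (log2 fold change −0.62 ± 0.16, adjusted p = 0.012). The call of psbF was lost without bri1-116 replicate 1 (log2 fold change −0.55). ndhA (log2 fold change −1.97 ± 0.54, adjusted p = 0.0153), atpB (log2 fold change −1.76 ± 0.52, adjusted p = 0.0233), ndhI (log2 fold change −1.16 ± 0.38, adjusted p = 0.0378) and psbE (log2 fold change −0.64 ± 0.22, adjusted p = 0.0411) were lower as well. Their bri1-116 and AtGATA2ox arrays overlapped. The call of ndhA was lost without bri1-116 replicate 1 or 2 or AtGATA2ox replicate 3 (log2 fold change −1.84 to −1.24). For atpB it was lost without bri1-116 replicate 1 or 2 or AtGATA2ox replicate 1 or 3 (log2 fold change −1.64 to −1.07). For ndhI it was lost without Col replicate 2 or 3, bri1-116 replicate 1 or 2 or AtGATA2ox replicate 1 or 3 (log2 fold change −1.18 to −0.61), and for psbE without Col replicate 3, bri1-116 replicate 1 or 2 or AtGATA2ox replicate 1 or 3 (log2 fold change −0.64 to −0.48).

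Ratios between neighbouring genes on the same array are not changed by a scaling that applies 1 constant per array, but quantile normalisation changes them. The 43 genes gave 33 pairs that follow each other in the gene order of assembly TAIR10.1. Each ratio is given as a log2 value minus the Col mean, and it shows unequal change, not which gene moved. The ratio of psaA to psaB was −3.08, −1.30 and −3.61 on the AtGATA2ox arrays and −1.41, −0.53 and −1.45 on the bri1-116 arrays, with Col between −0.43 and 0.42. All arrays of both genotypes were below every Col array, with AtGATA2ox replicates 1 and 3 the furthest. Computing these ratios under quantile normalisation was added after seeing the data. There the mean ratio of psaA to psaB moved from −2.66 to −1.96 in AtGATA2ox, and that of atpI to atpH from −2.03 to −1.40. The ratio of atpB to atpE was −2.42, −0.63 and −2.99 in AtGATA2ox and −0.28, −0.15 and −0.74 in bri1-116, with Col between −0.14 and 0.12. These 2 genes share an operon, and every AtGATA2ox array and every bri1-116 array had less atpB relative to atpE than Col. Replicate 2 of each genotype was nearest to Col for psaA to psaB and for atpB to atpE. The 3′ to 5′ actin ratio was also the lowest of the genotype on that array (3.66 in AtGATA2ox and 2.86 in bri1-116). In Col it was 1.81 to 2.03, and the part of this measure in the ratios was not tested. The ratio of atpI to atpH, which encode the a subunit and the c ring of the membrane part, was −2.39, −1.46 and −2.24 in AtGATA2ox and −0.76, −0.39 and −0.997 in bri1-116, below Col in both. On replicate 3 of both genotypes atpI itself read 78.8 and 79.9, under the highest bacterial control, so those ratios may reflect background.

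The ratio of rbcL to atpB, which are read in opposite directions from a shared intergenic region, was 3.15, 1.39 and 3.91 in AtGATA2ox. All 3 arrays were far above Col, which lay between −0.04 and 0.02, while bri1-116 overlapped with Col. The ratio of ndhA to ndhI was −1.51, −0.83 and −1.73 in AtGATA2ox, below every Col array. The ratio of psbT to psbB was −0.07, −0.35 and −0.17 in AtGATA2ox, overlapping with Col. Of the 33 neighbouring pairs, 15 had AtGATA2ox arrays apart from Col (45.5%), beside 50.7% of all 903 pairs of the 43 genes. In bri1-116 it was 9 of 33 (27.3%), beside 21.3% of all pairs. Neighbouring genes thus did not stand out from other pairs by this count, and pairs share genes and so are not independent.

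**Figure D4:**
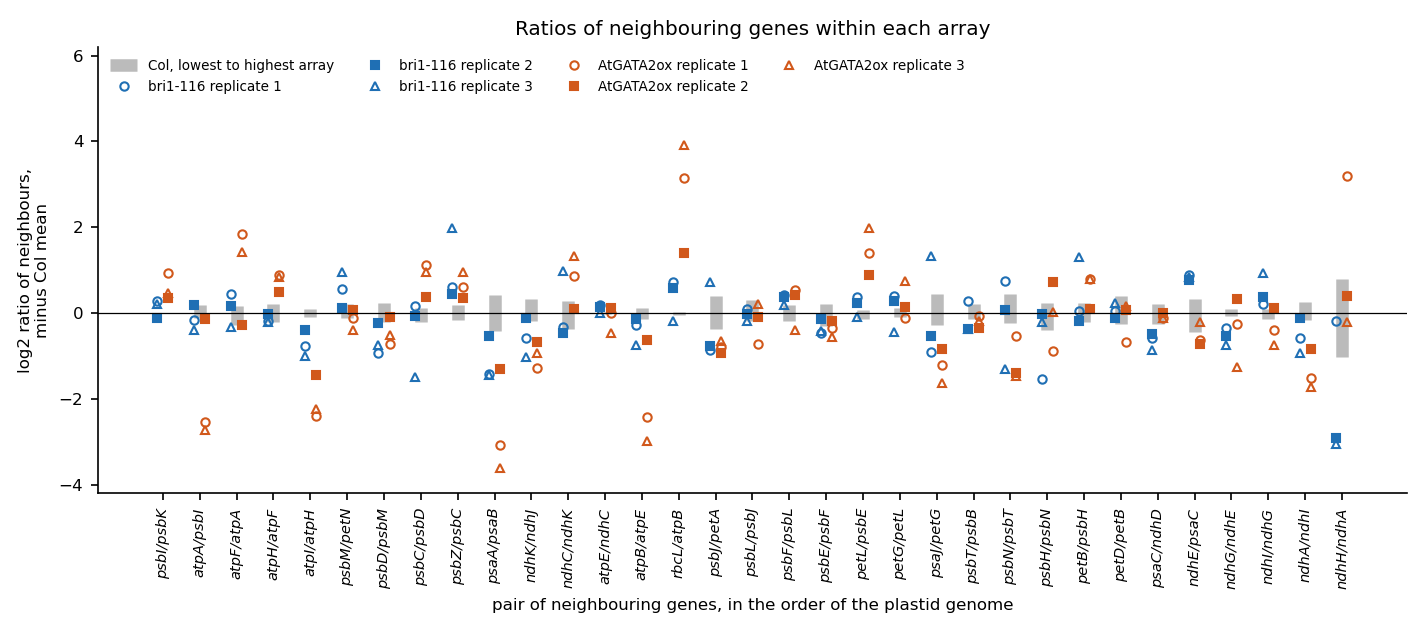
Log2 ratio of neighbouring plastid genes on each bri1-116 and AtGATA2ox array, relative to the Col mean, for all 33 pairs. Bars span the lowest to the highest Col array. The psaA to psaB and atpB to atpE ratios lie below Col on all 3 AtGATA2ox arrays and all 3 bri1-116 arrays, with AtGATA2ox replicate 2 nearest to Col among the AtGATA2ox arrays.

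How the arrays are put on 1 scale changed the counts of calls. With each array centred on its median, 19 of the 43 genes were higher and 2 lower in AtGATA2ox against Col, beside 15.2% higher and 11% lower of all probe sets, whose median was 0.17 against 0.66 for the 43 genes. With quantile normalisation 6 were higher and 8 lower, beside 11.8% and 13.2%, and the median of the 43 genes was −0.003 against 0.01 over all probe sets. With scaling to the hybridisation controls 0 were higher and 22 lower, beside 1.85% and 53%. The median of all probe sets fell by 1.22 there and that of the 43 genes by 0.73. With the deposited scaling the median of the 43 genes thus lay above that of all probe sets. Centring on the array median and scaling to the hybridisation controls take 1 constant from each array, so they cannot change this gap. Quantile normalisation can change it, and there the median of the 43 genes was not above that of all probe sets. Scaling to the hybridisation controls takes the same constant from every gene, so the calls of petB, petL, petN, psbI, ndhC and ndhD that changed sign under it are those with the smaller folds. Centred on the median of the 43 genes themselves, psbB (1.42) and psbZ (1.51) were higher, beside 3.23% of all probe sets, and psaA (−2.11), ndhA (−2.09) and atpB (−1.71) lower, beside 7.97%. For psbB, psbZ, psaA, ndhA and atpB the change relative to the other plastid photosynthesis genes was thus past the threshold too. In bri1-116 against Col limma called 4 higher and 0 lower with quantile normalisation, beside 8.16% and 7.78% of all probe sets. It called ndhJ there but not psbM. It called 5 and 0 with centring on the array median, ndhJ among them, beside 8.73% and 5.84%. It called 0 and 0 with scaling to the hybridisation controls, beside 2.11% and 16.2%, and with centring on the 43 genes, beside 0.936% and 2.98%. In AtGATA2ox against bri1-116 it called 4 higher and 6 lower with quantile normalisation, beside 11.1% and 13.5%, and 7 and 2 with centring on the array median, beside 12% and 11.9%. It called 0 higher and 15 lower with scaling to the hybridisation controls, beside 4.12% and 34%, and 0 and 3 with centring on the 43 genes, beside 4.26% and 4.72%.

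**Figure D5:**
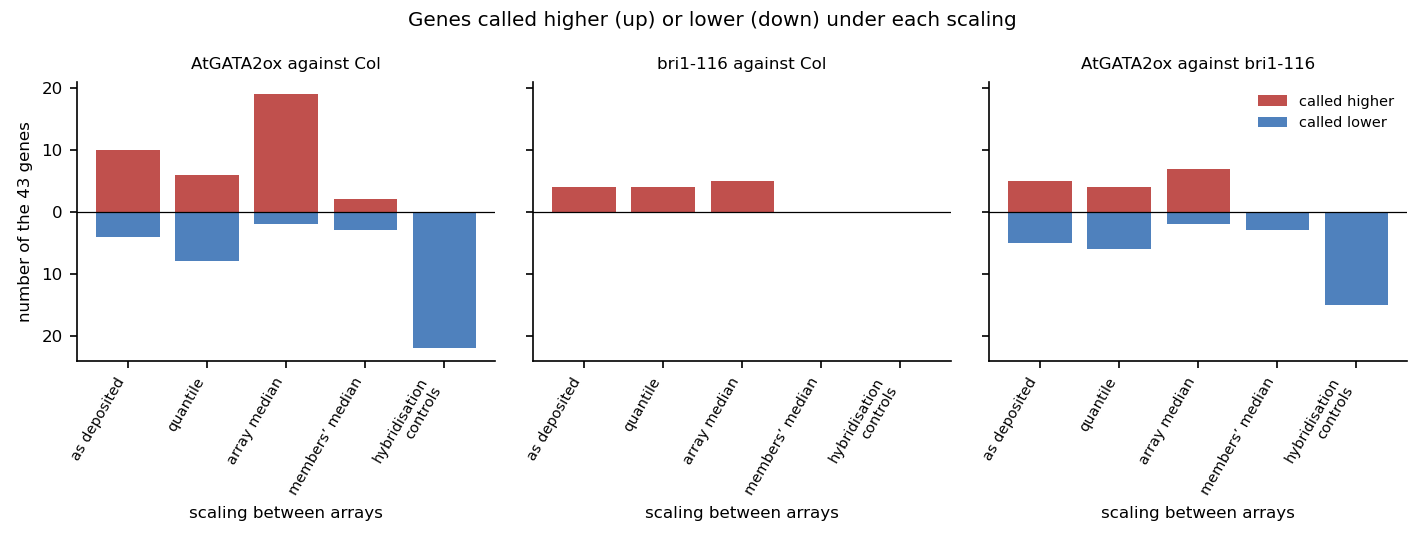
Number of the 43 genes called higher and lower under each way of scaling the arrays, for the 3 comparisons. In AtGATA2ox against Col the split goes from 19 higher and 2 lower with centring on the array median to 0 higher and 22 lower with scaling to the hybridisation controls.

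Of the 26 plastid genes outside photosynthesis, which encode ribosomal proteins, RNA polymerase subunits and a few other proteins, 2 were higher in AtGATA2ox and 1 lower, with a median log2 fold change of −0.34. The higher ones were ccsA (0.78 ± 0.19), which attaches haem to c-type cytochromes, and matK (0.65 ± 0.17), an intron maturase, and the lower one was ycf4 (−0.86 ± 0.29), an assembly factor of photosystem I. By their symbols ccsA and ycf4 fall in this list, so it is not free of genes that serve photosynthesis. With scaling to the hybridisation controls 0 were higher and 23 lower, and with centring on the array median the list's median was −0.004. In bri1-116 against Col 0 of the 26 were called by limma, with 2 higher and 0 lower at an unadjusted p under 0.05 and a median of −0.11, which was 0.03 with centring on the array median. On each AtGATA2ox array the median of the 43 photosynthesis genes minus that of the 26 was 0.41, 0.45 and 0.80, above the Col arrays, which lay between −0.09 and 0.05. The bri1-116 arrays gave 0.49, 0.09 and 0.03, and replicate 3 overlapped with Col.

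With the deposited scaling, most of the measured nuclear genes for photosystem, LHCB4 antenna and ATP synthase subunits were higher in both genotypes. This list held no measured gene of cytochrome b6f, the NDH complex or Rubisco. The median of the list stayed above 0 under all 5 scalings, but the counts of calls depended on the scaling. Of 9 with a named probe set, 7 were higher and 1 lower in AtGATA2ox, with a median log2 fold change of 1.45. In bri1-116 8 were higher, with a median of 1.39 and the remaining gene not called. Both counts were unchanged with quantile normalisation and with centring on the array median. Scaling to the hybridisation controls gave 4 higher and 2 lower in AtGATA2ox (median 0.40), and 6 and 0 in bri1-116. Centring on the plastid photosynthesis genes gave 5 and 0 in AtGATA2ox, and 3 and 0 in bri1-116. PSAN, a luminal subunit of photosystem I, rose by 1.98 ± 0.13 in AtGATA2ox and 1.64 ± 0.13 in bri1-116. PSAE-1, on the stromal side of photosystem I, rose by 2.28 ± 0.17 and 2.16 ± 0.17. LHCB4.3, a minor antenna gene, was the lower one in AtGATA2ox (−1.05 ± 0.21). Of 30 nuclear genes for plastid RNA processing and translation, 6 had a named probe set. ATAB2, which acts in translation of photosystem messages, rose in AtGATA2ox (0.67 ± 0.15) and in bri1-116 (1.305 ± 0.153), and LPA1, a photosystem II assembly factor, fell in AtGATA2ox (−0.78 ± 0.25). Of the 16 mitochondrion-encoded genes, 7 were higher and 1 lower in AtGATA2ox, and 1 was higher in bri1-116. With scaling to the hybridisation controls the count in AtGATA2ox turned to 1 higher and 5 lower.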

How the data were processed

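The authors deposited 1 linear intensity per probe set and array, with values from 0.1 to 61453.6. The submitters' processing notes name GCRMA and MAS5 without versions and do not say which tool gave the values. In the deposited intensities every array's mean without the lowest and highest 2% is nearly the same, so a broad shift in 1 direction pushes unchanged probe sets the opposite way. The build behind the array's probes is not given in the sources used here, so no coordinates are printed. Depth has no equivalent on these arrays, and 3 arrays per genotype limit the precision.

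Of 22810 probe sets, 64 array controls were left out. The annotation paired 13513 probe sets with 1 gene and 503 with several. Of the former, 13436 were found by identifier in RefSeq's table for assembly TAIR10.1, which gave chromosome, symbol and gene order. The test was limma 3.58.1 (R 4.3.3) with lmFit and eBayes, the prior variance following mean intensity, on log2(intensity + 1), checked on simulated data. Groups came from the labels.

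The alternatives were quantile normalisation, centring on the array median, scaling to the hybridisation controls, centring on the median of the 43 genes, leaving out the dimmest 40% of probe sets, a pseudocount of 16, no intensity trend, fits of 2 genotypes, a replicate block, leaving out each array, bri1-116 replicate 3 alone, and the mean of all probe sets of a gene. AtGATA2ox replicate 2 alone was added after seeing the data. The members, the lists and the tests were chosen with earlier results of these data known. By a written rule, values on every array are given for up to 6 genes called higher and up to 6 called lower per comparison with the smallest adjusted p, and for the brightest gene of each complex. Array values of atpA, of psbC against Col, of psbF in Col and of ndhI in Col were added after they were seen. Of 34 nuclear genes for plastid transcription 0 had a named probe set, and of 9 seed storage markers 0. For the root and stomatal markers 3 of 14 and 3 of 8 had one, and in AtGATA2ox 1 root marker was called lower while the stomatal markers were not called.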

Additional observations from a re-analysis of the deposited data

Results flagged for a closer look

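psbF lay above every Col array on all 3 bri1-116 arrays and below every Col array on all 3 AtGATA2ox arrays, with mean intensities of 11989.8 for bri1-116, 10031.6 for Col and 7830.67 for AtGATA2ox. The direct comparison of AtGATA2ox with bri1-116 was called by limma (log2 fold change −0.62, adjusted p = 0.012), and neither genotype was called against Col.

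ndhB, which encodes a membrane-arm subunit of the NDH complex, was outside the 43 genes because its probe set is paired with more than 1 gene entry. Its mean intensity was 243.7 for AtGATA2ox, 220.3 for bri1-116 and 127.233 for Col, and every array of both genotypes was above every Col array.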

How the results depend on the processing

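Counts are given as genes called higher and lower among the 43. In AtGATA2ox against Col (10 and 4) they were 6 and 8 with quantile normalisation, 19 and 2 with centring on the array median, 0 and 22 with scaling to the hybridisation controls (median −0.73), 2 and 3 with centring on the 43 genes themselves, 4 and 0 without the intensity trend, 12 and 7 without the dimmest 40% of probe sets, and 7 and 1 with AtGATA2ox replicate 2 as its only array. In bri1-116 against Col (4 and 0) they were 0 and 0 with scaling to the hybridisation controls or centring on the 43 genes, 1 and 0 without the trend, 8 and 0 with only the 2 genotypes fitted or with AtGATA2ox replicate 2 alone, and 1 and 2 with bri1-116 replicate 3 as its only array (median −0.29). In AtGATA2ox against bri1-116 (5 and 5) they were 7 and 2 with centring on the array median, 0 and 15 with scaling to the hybridisation controls (median −0.64), 0 and 3 with centring on the 43 genes, 2 and 0 without the trend, 4 and 3 with only the 2 genotypes, 9 and 0 with bri1-116 replicate 3 alone, and 1 and 0 with AtGATA2ox replicate 2 alone. Leaving out each array in turn gave 4 to 15 higher and 2 to 8 lower in AtGATA2ox against Col, 1 to 8 higher and 0 lower in bri1-116 against Col, and 3 to 6 higher and 0 to 10 lower between the genotypes. Scaling to the hybridisation controls turned the log2 fold change of ndhC (−0.62), ndhD (−0.42), petB (−0.44), petL (−0.35), petN (−0.39) and psbI (−0.36) in AtGATA2ox against Col. The cause was not tested.

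Of the 28 calls of single genes over the 3 comparisons, all 28 were kept with a pseudocount of 16 and without the dimmest probe sets. The mean of all probe sets of a gene changes nothing here, since each gene has 1. Quantile normalisation kept 21, scaling to the hybridisation controls 9, and fits without the trend or centred on the 43 genes 7 each. With replicate number as a block the counts were 11 and 6, 5 and 0, and 5 and 7, and all 28 calls were kept. Deviations of arrays with the same number correlated at −0.018 to 0.020, although the array with the same number was the best match in most cases. Whether the numbers pair the arrays is thus not settled. The arrays carry no detection calls, and dim genes such as ndhF and ndhH have no secure direction.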
